A study of Mus musculus with 4 samples.

Results

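The transcriptome of alveolar type II isolates from wild-type (WT) mice was described on its own, by abundance and by gene class. Its members were the gene symbols with at least 10 raw read counts in both WT libraries, 12908 of the 25759 symbols in the deposited table. They were ranked by mean CPM, the count of a gene per 1000000 counts of its library, so a CPM is a share of counts and not a level per transcript length. The WT libraries are 2 of the 4 samples of the study, replicates 1 and 2, from C57BL/6 mice with the wild-type genotype at 14 weeks of age. The other samples, from mice of the same age with conditionally active mTOR in the epithelium, entered no value. The labels name no treatment, and no source used here gives the isolation of the cells, the sex of the mice or whether a library is a single mouse or a pool. Each value is therefore given for both libraries, their spread may be technical, and no test was made.

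Type II cells are the cuboidal epithelial cells of the alveolus. They make surfactant, the film of phospholipids and surfactant proteins that lowers surface tension, store it in lysosome-related organelles called lamellar bodies, and renew the flat type I cells across which gas is exchanged. Their neighbours in the small airways include club cells, which secrete Scgb1a1 and metabolise inhaled chemicals, and ciliated cells, which move mucus. Cells where the bronchiole meets the alveolus are known to carry club and type II products together.

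The WT libraries held 18146693 and 19018785 counts, so that 3 counts, the limit taken for a gene with no count, correspond to 0.165 and 0.158 CPM. At least 1 count was found for 15985 and 16218 symbols, and 8834 symbols had no count in either library. The minimum was met in replicate 1 by 13126 symbols and in replicate 2 by 13248, and in only 1 of the libraries by 558. The members held 99.9% of the counts of each library, with a median of 23.7 CPM. Annotation by symbol made 12583 of them protein coding, left 158 without a match, and placed 3 among the long intergenic noncoding RNAs. Genes at the minimum, such as Gm37968 and the kinase gene Hipk4, had 10 counts in each library. The symbols with the highest mean CPM outside it were Gm20075, with 0 and 435 counts in replicates 1 and 2, and Gm10093, with 1 and 139 counts.

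The replicates were close but not equal within counting error. Their log2 CPM correlated across members at Pearson's r = 0.991 and their CPM at Spearman's rho = 0.994, where genes are not independent replicates. A chi-square over the counts was 13.6 per degree of freedom, so the libraries differed by more than sampling noise. They were counted as 2 samples by their labels, since this value cannot separate mice from technical spread. In replicate 2, 86 members (0.666% of members) were over 2-fold higher, and 52 (0.403%) were over 2-fold higher in replicate 1. With edgeR's TMM scaling in place of library totals these counts were 69 and 66. By any amount, 7785 members (60.3%) were higher in replicate 2 and 5123 (39.7%) lower, and with TMM scaling 49.7% were higher. Counts of list members higher or lower in replicate 2 are to be read against these shares. The median log2 ratio of replicate 2 over replicate 1 was 0.05 over all members. Among members at 1 to 10 CPM the standard deviation of the log2 ratio was 0.43, where counting error alone gives 0.28, and at 100 to 1000 CPM it was 0.19 where counting error gives 0.04.

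Few genes held a large part of the counts. The first 2 genes by mean CPM, Scgb1a1 and Sftpc, took 14.7% of counts in replicate 1 and 13.9% in replicate 2. The first 10 took 24.6% and 22.98%, the first 100 took 39.4% and 37.8%, and the first 1000 took 63.7% and 62.1%. A share of 50% of all counts was reached with 329 genes in replicate 1 and 389 in replicate 2, and 90% with 4988 and 5104. At the other end, 453 members lay under 1 CPM, and the 3329 between 1 and 10 CPM held 1.48% and 1.54% of counts. The largest group by number, 7530 members between 10 and 100 CPM, held 27.8% and 29.0% of counts, and the 7 members above 10000 CPM held 22.4% and 20.6%.

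**Figure D1:**
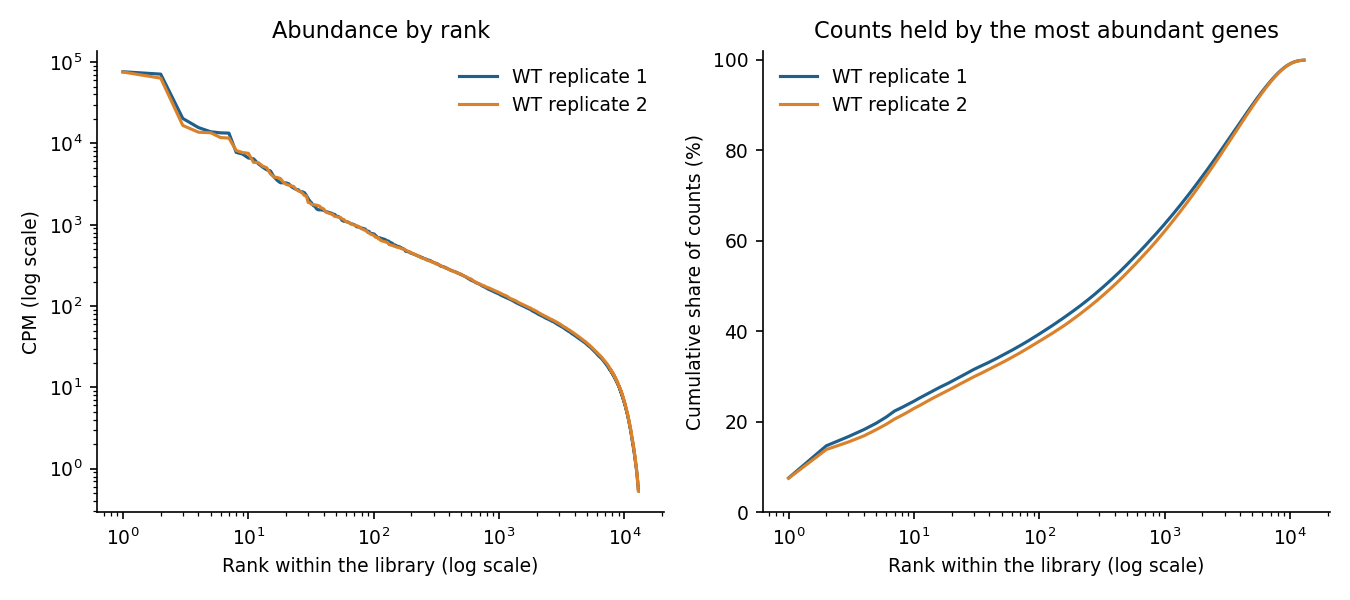
Left, CPM (log scale) of each member against its rank within its library (log scale), for WT replicates 1 and 2; right, the cumulative share of counts in percent against the same rank. The curves of the replicates nearly coincide, and replicate 1 lies slightly above replicate 2 in cumulative share, as in the 39.4% and 37.8% held by the first 100 genes.

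The surfactant proteins were among the most abundant transcripts. Sftpc encodes surfactant protein C, the hydrophobic peptide that spreads the surface film, and is the defining gene of type II cells (chromosome 14, 70520949 to 70524081 on GRCm38, minus strand). It had 1381376 counts in replicate 1 and 1207205 in replicate 2, which is 7.61% (95% exact Clopper-Pearson interval 7.60 to 7.62) and 6.35% (6.34 to 6.36) of counts. The gap between the replicates exceeded these intervals, which cover counting error only. Reads not collapsed by molecular identifier cannot be taken as separate molecules. What caused the gap was not tested. Sftpb, which encodes the other hydrophobic surfactant protein, needed for the formation of lamellar bodies, was at 15666 and 13536 CPM. Sftpa1 and Sftpd encode collectins, secreted lectins that bind microbes. Sftpa1 was at 13492 and 11624 CPM and Sftpd at 2544 and 2267 CPM. Each of the 4 was lower in replicate 2, and each was under 2-fold apart.

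Scgb1a1, the secretoglobin of club cells, was the only other gene with a share like that of Sftpc (chromosome 19, 9083636 to 9087958, minus strand). It was at 71140.5 and 75520 CPM against 76123 and 63474 CPM for Sftpc, so Sftpc had more counts in replicate 1 and Scgb1a1 in replicate 2. The exon sequence of Scgb1a1 is 0.476 kb and that of Sftpc 1.034 kb in GENCODE M21. Scaled by exon length, to a sum of 1000000 per library, Scgb1a1 stood at 282617 and 302727 and Sftpc at 139214 and 117131, a ratio of 2.03 and 2.58. With the length of annotated transcripts in place of all exons, an alternative chosen after seeing the data, the mean ratio was 1.77. Scgb1a1 was thus ahead per length in both libraries, while by counts alone the order differed between them. In bulk RNA, more cells of a type and more RNA per cell cannot be told apart, so these values give no share of cells.

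Per kilobase the next genes were Lyz2 at 29144 and 24112, the cytochrome oxidase gene mt-Co1 at 16387 and 16962, Sftpb at 15053 and 13124, mt-Co2 at 13086 and 14048 and the carbonyl reductase gene Cbr2 at 10529 and 11770. The mitochondrial genes mt-Cytb, mt-Atp6 and mt-Co3 completed the first 10, at 9297 and 9771, 9102 and 9370, and 7709 and 9008. Secreted and mitochondrial products thus led per kilobase, and 23 of the first 30 genes by CPM were also in the first 30 per kilobase. Genes with long transcripts ranked lower per kilobase than by CPM. Fasn, which encodes fatty acid synthase and has 10.947 kb of exon, was at 3269 and 3136 CPM and at 565 and 547 per kilobase. Abca3, the lipid pump of the lamellar body, was at 2306 and 2287 CPM and at 465 and 466 per kilobase.

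**Figure D2:**
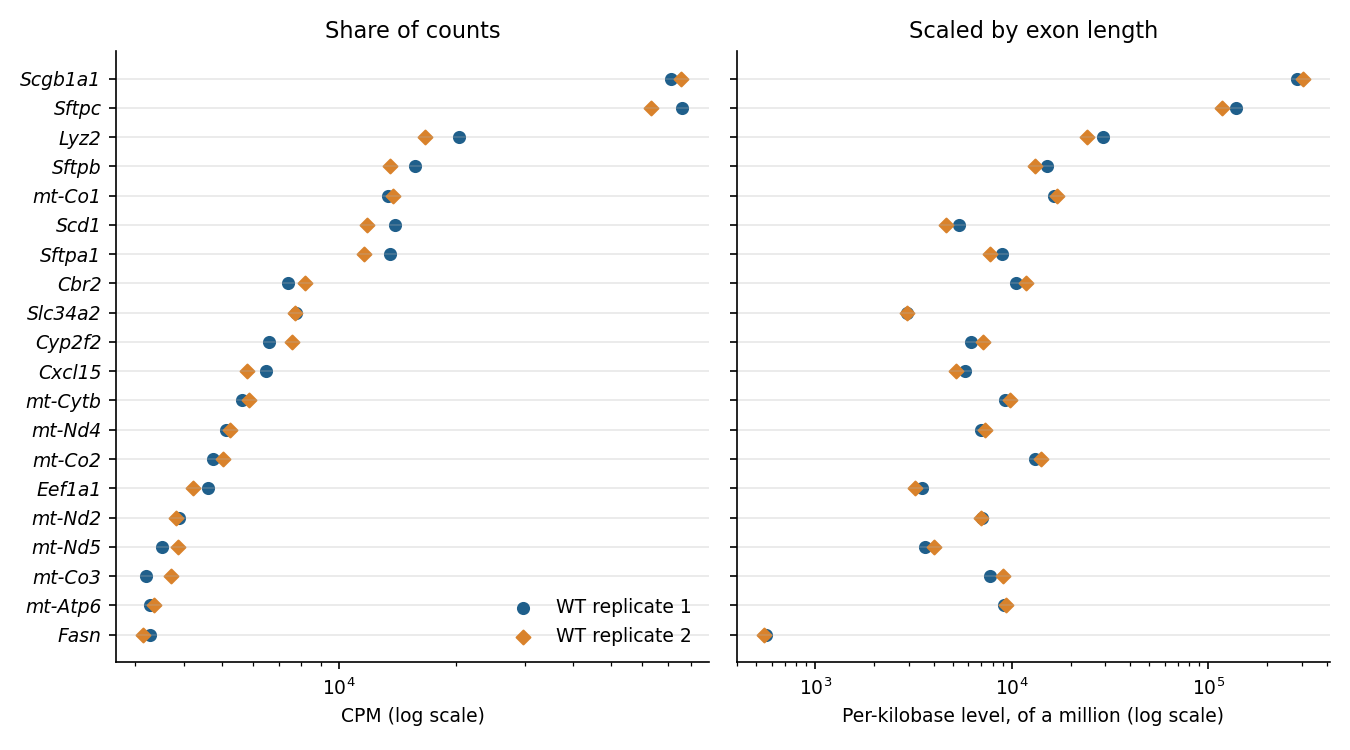
The 20 members with the highest mean CPM, in CPM (left) and scaled by exon length to a sum of 1000000 (right), both on log axes, with a circle for WT replicate 1 and a diamond for replicate 2. The replicates of Scgb1a1 and Sftpc overlap in CPM and are apart per kilobase, and Fasn falls furthest to the left in the right panel, at 565 and 547.

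Lyz2 and Lyz1 encode lysozymes, enzymes that cut bacterial cell walls, and are neighbours on chromosome 10 of GRCm38 (Lyz2 from 117277331 to 117282321, Lyz1 from 117287797 to 117292868, both on the minus strand). Lyz2 is best known from macrophages and is also a product of type II cells. It was at 20282 and 16630 CPM, and Lyz1 at 968 and 1234 CPM. The ratio of their counts was 20.9 in replicate 1 and 13.5 in replicate 2. Of 444 coding bases 22 differed between the genes in GENCODE M21, and the longest identical run was 118 bases, so a short read may fit both. The stretch of 90 coding bases with the most differences is shown, as 1 place where reads can be assigned. It holds 13 of the 22 differing bases, and sequence outside the coding part was not compared. It is given as coding bases 43 to 132 counted from the start codon, 5′ to 3′, with the 13 differing bases in capitals.
Lyz1: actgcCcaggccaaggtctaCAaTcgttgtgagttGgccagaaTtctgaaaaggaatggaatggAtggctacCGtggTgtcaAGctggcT
Lyz2: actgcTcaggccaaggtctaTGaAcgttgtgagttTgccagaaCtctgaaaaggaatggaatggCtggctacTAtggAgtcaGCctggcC
The level of Lyz1 is uncertain, since no source used here says how reads that fit both genes were counted. Lyz2 also stands in the list of monocytes and other macrophages, of which 5 of 14 genes were detected. Among the others were the endotoxin coreceptor gene Cd14 at 68.8 and 73.9 CPM, Ly6c2 at 13.8 and 13.8 CPM and the receptor gene Csf1r at 3.25 and 4.26 CPM. Of the 9 genes not detected 6 had no count in either library, C1qa, C1qb and Adgre1 among them. What part of the Lyz2 counts came from macrophages was not tested.

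All 21 genes of the type II list were detected, with a summed level of 160265 CPM in replicate 1 and 137557 in replicate 2, or 16.0% and 13.8% of counts. Their median was 1860 CPM, against 23.7 CPM over all members. Of these genes 15 also stand in another list. Besides the surfactant proteins, the phosphate transporter gene Slc34a2, which recovers phosphate from the alveolar space, was at 7759 and 7725 CPM. The chemokine gene Cxcl15, also called lungkine, was at 6479 and 5801 CPM, the chitinase-like gene Chil1 at 3288 and 2954 CPM, and complement component gene Hc at 2695 and 2718 CPM. Lamp3, a membrane protein of lamellar bodies, was at 1946 and 1774 CPM. All 21 met the minimum in both replicates, in a list chosen with earlier results of these data known. The type I, club and ciliated lists were detected in full too, at 18, 22 and 23 genes. Detection alone thus does not tell the labelled cell type from these. Of the 21 genes 20 were lower in replicate 2 (median log2 ratio -0.16, against 0.05 over all members), and all 21 with TMM scaling. None of the 21 was over 2-fold apart.

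Transcripts of proteins that mature surfactant peptides were detected throughout, 10 of 10 with the surfactant proteins included. The sum of these 10, 111516 and 94292 CPM, was mostly Sftpc, at 76123 and 63474 CPM. Napsa, the aspartic protease that cuts the Sftpb precursor, was at 1336 and 1113 CPM. Ctsh, a cathepsin of the same pathway, was at 576 and 523 CPM. Adgrf5, the receptor that senses the surfactant pool and limits it, was at 772 and 769 CPM.

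Genes of the lamellar body and of surfactant phospholipid were all detected as well, 40 of 40, at 41056 and 37991 CPM in sum, or 4.11% and 3.80% of counts. Scd1, the desaturase that makes monounsaturated fatty acids, held the largest part, at 13924 and 11806 CPM. Lpcat1, which makes the dipalmitoyl phosphatidylcholine of surfactant, was at 1854 and 1611 CPM. Of the fatty acid synthesis list 21 of 21 were detected, at 24735 and 21888 CPM in sum. After Scd1 and Fasn came the second desaturase Scd2 at 1525 and 1349 CPM, and the activator of acetyl-CoA carboxylase Mid1ip1 at 1088 and 963 CPM. The elongase gene Elovl1 stood at 990 and 881 CPM, and Acly, which supplies cytosolic acetyl-CoA, at 919 and 861 CPM. Srebf1, the transcription factor that drives these genes, was at 442 and 384 CPM. The elongase gene Elovl6 was near the low end, at 2.76 and 2.79 CPM, and was chosen after its value was seen.

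The cholesterol synthesis list was nearly complete, with 24 of 25 genes detected and 3342 and 2938 CPM in sum. Its regulator Srebf2 was at 396 and 377 CPM, and the feedback protein gene Insig1 was at 269 and 212 CPM. Of the 24 genes 22 were lower in replicate 2 (39.7% of all members were), with a median log2 ratio of -0.20, and none was over 2-fold apart.

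The transcription factor list held regulators of lung epithelium and of other organs. Of its 52 members 41 were detected, at 6675 and 6701 CPM in sum. Cebpa, which is needed for type II maturation, was at 945 and 938 CPM. Etv5, which maintains type II identity downstream of FGF and RAS signalling, was at 910 and 758 CPM. Nkx2-1, the master regulator of the lung lineage, was at 672 and 618 CPM. Irx3, Irx1 and Foxj1 followed, at 633 and 606, 513 and 531, and 334 and 440 CPM, where Irx genes are homeobox factors of the distal lung and Foxj1 is the regulator of motile cilia. Several regulators of other organs were at 0: Pdx1 and Ptf1a of pancreas, Cdx2 of intestine, Nkx2-5 of heart and Myod1 of muscle had no count. Of the Hox genes 2 of 39 were detected, while 339 of 395 Zfp zinc finger genes were detected at a median of 7.55 CPM.

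Junction genes of a polarised epithelium were all detected, 26 of 26, at 6435 and 6559 CPM in sum. Ctnnb1, which encodes beta-catenin, was at 1396 and 1405 CPM and its partner Cdh1, E-cadherin, at 935 and 972 CPM. The claudin genes Cldn18, which seals the alveolar barrier, and Cldn3 were at 665 and 618 and at 604 and 623 CPM. Over the claudin family 12 of 33 were detected, and over the keratins 10 of 54. The list of simple keratins and transitional state genes, which mark cells between type II and type I, gave 21 of 22. The keratins Krt8, Krt18 and Krt19 stood at 426 and 442, 189 and 193, and 177 and 180 CPM, beside the chaperone gene Clu at 200 and 190 CPM.

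Receptors and ligands gave the signalling repertoire. Of 40 receptor tyrosine kinases 34 were detected. Fgfr2, the receptor of FGF7 and FGF10 on lung epithelium, was at 653 and 624 CPM, the HGF receptor Met at 302 and 346 CPM, the neuregulin receptor Erbb3 at 165 and 170 CPM and the collagen receptor Ddr1 at 159 and 168 CPM. Of 49 growth factor ligands 37 were detected. Fgf1 was at 214 and 186 CPM, the endothelial growth factor Vegfa at 185 and 191 CPM, the procollagen protease Bmp1 at 139 and 146 CPM and the Notch ligand Jag1 at 101 and 118 CPM. Fgf7 and Fgf10, the mesenchymal ligands of Fgfr2, had 1 and 0 counts and 0 and 3 counts. The kinase complexes of mTOR and their partners were detected in full, 28 of 28, at 1075 and 1120 CPM in sum, with the translational repressor Eif4ebp2 at 114 and 134 CPM, the inhibitor Tsc2 at 112 and 118 CPM and Deptor, an inhibitory subunit, at 108 and 112 CPM. With TMM scaling the sign of the small difference in that list turned, from 20 of 28 to 11 of 28 higher in replicate 2, where the share of all members went from 60.3% to 49.7%.

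Ion and fluid transport was represented by 30 of 32 genes, at 12401 and 12659 CPM in sum, most of it Slc34a2. The sodium pump subunit Atp1b1 was at 1036 and 1168 CPM. The cotransporter gene Slc12a2 was at 434 and 490 CPM, the water channel Aqp5 at 368 and 327 CPM, and the sodium channel subunit Scnn1a at 317 and 354 CPM. Lysosomal genes were also nearly complete, 39 of 40, at 9166 and 8691 CPM. Npc2, the cholesterol carrier of the lysosome and of lamellar bodies, was at 2820 and 2550 CPM, and the protease genes Ctsc and Ctsb at 710.5 and 667 CPM and at 473 and 451 CPM. Ctss, a cathepsin of antigen presenting cells, had 2 and 4 counts.

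Transcripts of airway epithelium took a large share of counts. All 22 genes of the club and secretory list were detected, at 96319 and 103935 CPM in sum, or 9.63% and 10.4% of counts, most of it Scgb1a1. The metabolic enzymes Cbr2 and Cyp2f2 were at 7389 and 8186 and at 6616 and 7567 CPM. The secretoglobin Scgb3a2 was at 2549 and 3015 CPM, the haemoglobin-binding protein gene Hp at 2480 and 2611 CPM and the retinal dehydrogenase Aldh1a1 at 1525 and 1694 CPM. Aldh1a7, at 352 and 360 CPM, has 126 of 1503 coding bases different from Aldh1a1. Of this list 19 of 22 genes (86.4%) were higher in replicate 2, against 60.3% of all members, with a median log2 ratio of 0.10. With TMM scaling they were 16 (72.7%), against 49.7%. The log2 ratios ran from -0.05 for the trefoil factor gene Tff2 to 0.55 for the mucin gene Muc5b. Within the secretoglobin family 4 of 34 symbols were detected, and the other 30 had no count.

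Ciliated cell genes followed the same direction. All 23 were detected, at 3534 and 4076 CPM in sum, with a median of 52.8 CPM. The largest part was the lipid-binding protein Sec14l3, at 1363 and 1562 CPM, which stands in the type I list too. The tubulin Tubb4b was at 509 and 561 CPM, the microtubule protein Tppp3 at 463 and 512 CPM, and the outer dynein arm gene Dnah5 at 68.6 and 98.7 CPM. In replicate 2, 22 of the 23 (95.7%, against 60.3% of all members) were higher, with a median log2 ratio of 0.18, and 19 of 23 were higher with TMM scaling. None was over 2-fold apart, and the log2 ratios ran from -0.01 for the radial spoke gene Rsph4a to 0.53 for Dnah5. The summed share of counts of the club and ciliated lists was thus higher in replicate 2 and that of the type II list lower, by amounts that varied between the genes of a list.

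Most genes listed for rarer airway cells had few counts. Of 10 neuroendocrine genes 9 were detected, at 18.1 and 32.6 CPM in sum, with the peptide hormone convertase Pcsk1 at 2.42 and 4.57 CPM. In replicate 2, 8 of the 9 were higher (60.3% of all members were) and 3 were over 2-fold higher (0.666% of all members were). The gene not detected was Chga, which encodes chromogranin A and had 4 and 16 counts. Basal cell genes were detected for 3 of 9 symbols. Krt5, the keratin that defines basal cells, had 9 and 46 counts and the basal factor Trp63 1 and 15 counts. Both were thus below the minimum in replicate 1 and above it in replicate 2. Of the tuft cell list only the kinase Dclk1 was detected, at 21.8 and 22.4 CPM, and Pou2f3, the tuft cell regulator, had no count. Of 7 ionocyte genes 3 were detected, at 224 and 227 CPM in sum. Foxi1, the regulator of ionocytes, had 0 and 1 counts, while Cftr, the chloride channel also made by secretory cells, was at 38.2 and 48.1 CPM. Most of the sum was another detected gene that is not reported here. Of goblet cell genes 7 of 9 were detected, led by the mucin Muc5b at 209 and 306 CPM, the secreted protease-like Clca1 at 61.0 and 3.73 CPM and the mucus protein Fcgbp at 20.2 and 11.2 CPM. Of these 7 genes 5 were lower in replicate 2 (39.7% of all members were), with a median log2 ratio of -0.72. The sum of the list, 315 and 343 CPM, was higher in replicate 2, but most of it was Muc5b. Muc5b stands in the club list too, so the sum is not a separate value beside that list.

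Type I cell genes were complete and moderate, 18 of 18, at 4825 and 4990 CPM in sum. The largest part was Sec14l3, at 1363 and 1562 CPM, which stands in the ciliated list too. Ager, the receptor that defines type I cells, was at 1012 and 935 CPM, the barrier gene Cldn18 at 665 and 618 CPM, and the membrane protein Emp2 at 415 and 408 CPM. Other defining members held smaller shares of counts: Hopx was at 74.7 and 92.1 CPM, Pdpn at 9.97 and 10.7 CPM and Rtkn2 at 3.03 and 6.15 CPM, all named after their values were seen. In replicate 2, 14 of 18 (77.8%, against 60.3% of all members) were higher (median log2 ratio 0.23), and 2, Spock2 and Rtkn2, were over 2-fold higher.

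**Figure D3:**
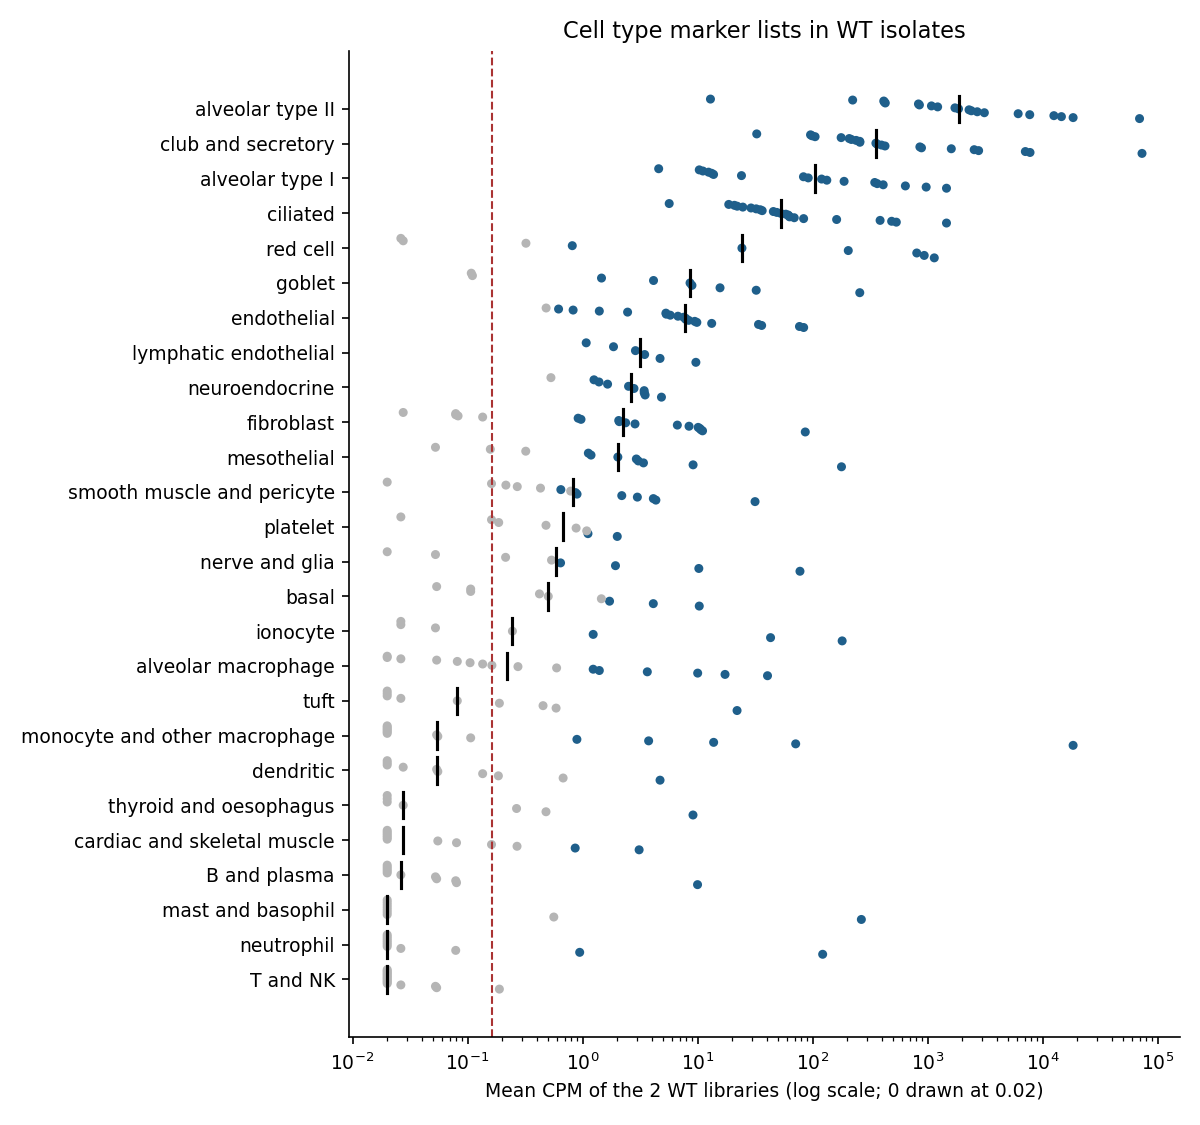
Mean CPM (log scale) of every gene of the 26 cell type lists, 1 row per list, with blue points for genes with at least 10 counts in both libraries, grey points for the rest, a bar at the median of the list and a dashed line at the mean CPM of 3 counts. Type II and club genes lie furthest right, and most T and NK, neutrophil, mast and B cell genes lie at or under the dashed line.

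Leukocyte transcripts were few. None of 15 T and NK genes was detected, and 11 of them, Cd3e and Cd4 included, had no count in either library. The neutrophil list gave 2 of 11, of which Ltf, a secreted iron-binding protein also made by airway glands, was at 76.8 and 168 CPM while S100a9, Ly6g and Csf3r had no count. The mast and basophil list gave 1 of 9, the histidine decarboxylase Hdc at 275 and 256 CPM, while the mast cell proteases Cpa3, Mcpt4 and Cma1 had no count. The B and plasma list gave 1 of 11, Cd79b at 10.7 and 9.31 CPM, while Cd79a had no count. In each of these last 3 lists a single gene carried the sum, and genes that define the cell type lay at 0. Alveolar macrophage genes gave 6 of 16, at 75.4 and 76.0 CPM in sum, led by Plet1 at 39.0 and 42.2 CPM, the protease Ctsk at 16.7 and 17.98 CPM and Pparg at 10.7 and 9.36 CPM, with Cd68, a lysosomal membrane protein of macrophages, at 85 and 50 counts. The defining receptors Marco and Siglecf had 0 and 0 counts and 0 and 1 counts. The dendritic cell list gave 1 of 10, Zbtb46 at 4.02 and 5.42 CPM. A count of 0 allows up to 0.165 CPM in replicate 1 and 0.158 CPM in replicate 2, which covers counting error only.

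Stromal and vascular transcripts were low but broad. Endothelial genes gave 19 of 20, at 322 and 326 CPM in sum and a median of 7.88 CPM, with the VEGF receptor Kdr at 79.6 and 87.8 CPM, the adhesion molecule Esam at 78.4 and 75.6 CPM, Ly6c1 at 39.8 and 32.4 CPM and Vwf, the clotting factor carrier, at 37.3 and 30.5 CPM. Lymphatic genes gave 6 of 6 at a median of 3.18 CPM. The fibroblast list gave 13 of 18. Its sum of 162 and 149 CPM was mostly Npnt, a basement membrane ligand also made by epithelium, at 81.4 and 91.5 CPM, and the collagen genes Col1a2 and Col3a1 were at 12.2 and 9.15 CPM and at 12.3 and 8.62 CPM. Of these 13 genes 12 were lower in replicate 2 (39.7% of all members were), with a median log2 ratio of -0.42, and 1 was over 2-fold lower. Smooth muscle and pericyte genes gave 8 of 14, at 51.7 and 47.4 CPM, and mesothelial genes 8 of 11, at 195 and 209 CPM, most of it the keratin Krt19, which airway cells also make. Cardiac and skeletal muscle genes gave 2 of 12, platelet genes 2 of 8, nerve and glia genes 4 of 8, and thyroid and oesophagus genes 1 of 7.

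By summed CPM, red cell transcripts led the non-epithelial lists once Lyz2 is left aside. The list gave 6 of 9, at 2550 and 3684 CPM in sum, with Hbb-bs at 943 and 1347 CPM, Hba-a2 at 778 and 1093 CPM, Hba-a1 at 637 and 975 CPM and Hbb-bt at 172 and 237 CPM. Hba-a1 and Hba-a2 differ in 1 of 426 coding bases and Hbb-bs and Hbb-bt in 1 of 441, so the split within each pair is uncertain. Alas2, which starts haem synthesis in red cell precursors, was at 18.6 and 30.1 CPM, whereas the membrane protein Slc4a1 had 5 and 7 counts. Of the 6 detected genes 5, both globin pairs and Alas2, were higher in replicate 2 (60.3% of all members were) and under 2-fold apart. The other 1 was over 2-fold lower in replicate 2.

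Antigen presentation was described by class. Of 11 MHC class II genes 8 were detected, at 3479 and 2863 CPM in sum. The invariant chain Cd74 was at 2095 and 1753 CPM, and the chains H2-Ab1, H2-Aa and H2-Eb1 were at 543 and 432, 416 and 346, and 275 and 205 CPM. Ciita, the coactivator of the class, was at 27.2 and 23.1 CPM. H2-Ob and H2-Oa, whose products pair in B cells, had 9 and 4 counts and no count. Of the 8 genes 7 were lower in replicate 2, as were 39.7% of all members. Among cells known to present antigen, 6 of 16 alveolar macrophage, 5 of 14 monocyte and other macrophage, 1 of 10 dendritic and 1 of 11 B and plasma genes were detected, and their part in the class II level was not tested. For class I, 21 of 21 genes with a row were detected, at 3465 and 3205 CPM in sum. H2-K1 and H2-D1 were at 803 and 702 CPM and at 770 and 664 CPM. Of the 21 class I genes 18 were lower in replicate 2 too. Class I genes share long identical stretches, so the level of a single member is uncertain. Of the interferon-stimulated genes 25 of 29 were detected, but their sum was 302 and 306 CPM and their median 4.16 CPM, with Ifi27 at 61.6 and 55.3 CPM.

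Innate defence of the mucosa took 5.56% and 4.95% of counts over 26 detected of 34 genes, with Lyz2, Sftpa1 and Cxcl15 in front, and 17 of the 34 stand in another list. The defensin family was at the other extreme, with 0 of 64 symbols detected and no count for 61. Among chemokines and cytokines 19 of 36 were detected. After Cxcl15 came the alarmin Il33 at 334 and 364 CPM, Cxcl17 at 74.0 and 80.2 CPM and Cxcl16 at 40.8 and 43.2 CPM. Several inflammatory mediators had few or no counts, with Tnf at 2 and 4 counts, Il6 at 6 and 2 counts, and no count for Il1b, Ccl2 or Cxcl9.

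Detoxifying and antioxidant enzymes formed a large class, 57 of 59 detected, at 28412 and 30875 CPM in sum, or 2.84% and 3.09% of counts. Cbr2 and Cyp2f2 came first. The ferritin chain genes Ftl1 and Fth1 were at 1679 and 1716 and at 1100 and 1076 CPM. Cyp1a1, which is induced by polycyclic aromatic hydrocarbons, had 4 and 6 counts. Of the whole cytochrome P450 family 24 of 99 symbols were detected, with 0.792% and 0.899% of counts, and of the glutathione transferases 23 of 25.

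**Figure D4:**
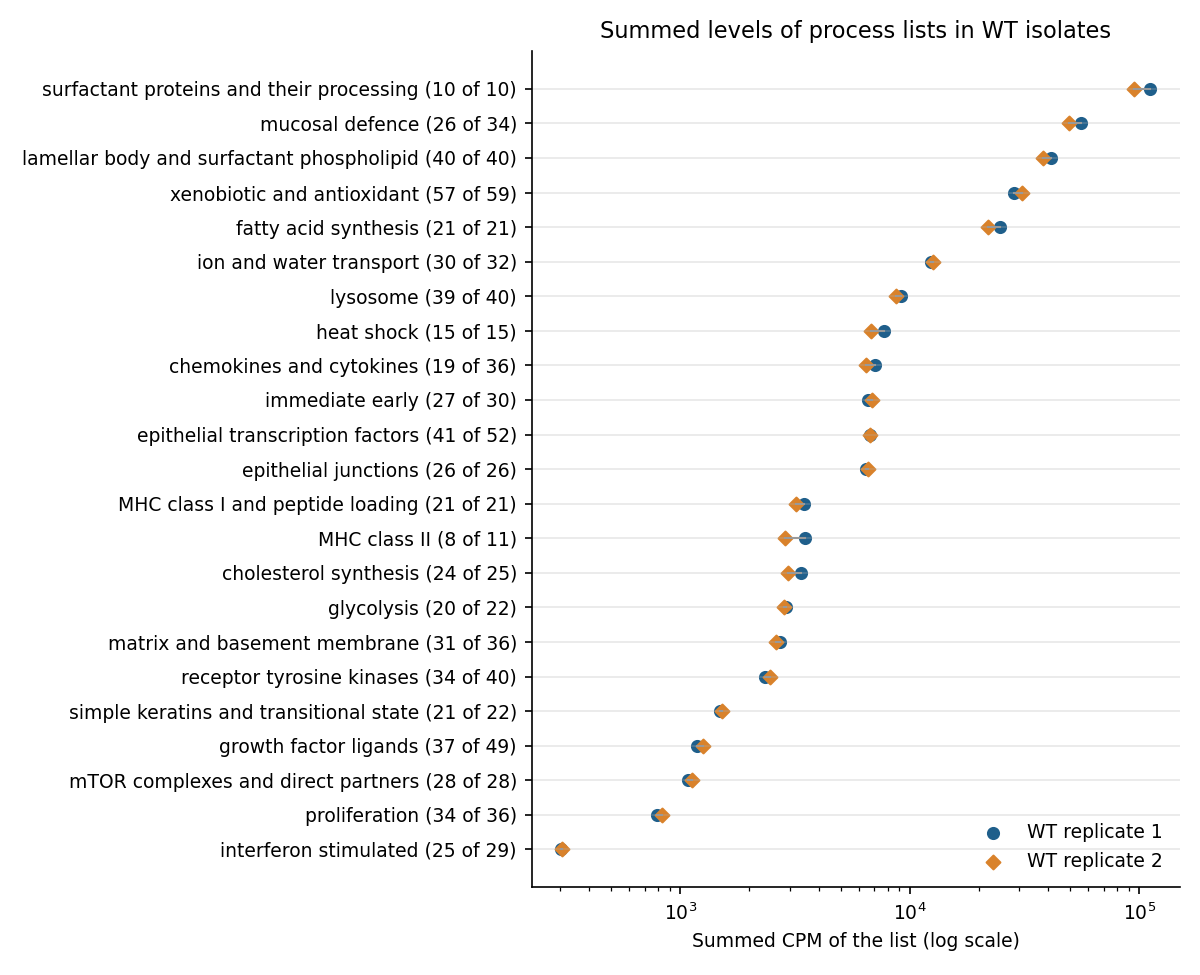
Summed CPM (log scale) of 23 of the 25 process lists (all but sex-linked and nuclear noncoding genes) in WT replicate 1 (circle) and replicate 2 (diamond), with the number of detected genes of those with a row in brackets. Surfactant proteins and their processing stand highest of those drawn, at 111516 and 94292 CPM, and interferon-stimulated genes lowest, at 302 and 306 CPM.

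The common machinery of the cell was detected nearly in full. All 13 mitochondrially encoded proteins were detected, from mt-Atp8 with 599 and 729 counts to mt-Co1 with 242953 and 261210, and together took 4.75% and 4.97% of counts. With library totals 11 of the 13 were higher in replicate 2, against 60.3% of all members, and 7 with TMM scaling, against 49.7%. Cytosolic ribosomal proteins gave 80 of 83 at a median of 365 CPM and took 3.24% and 2.93% of counts. In replicate 2, 78 of the 80 were lower (39.7% of all members were), with a median log2 ratio of -0.14 that was -0.19 with TMM scaling. The elongation factors Eef1a1 and Eef2 were at 4595 and 4218 and at 2725 and 2449 CPM, both lower in replicate 2 too. Mitochondrial ribosomal proteins gave 78 of 78 at a median of 20.99 CPM. Rps12 and Rpl27 had few counts, at 12.5 and 10.7 CPM and at 18.3 and 22.6 CPM, and Rpl10 was at 116 and 124 CPM while the symbol Rpl10-ps3, named as its pseudogene, was at 769 and 699 CPM. These genes have near-identical copies elsewhere in the genome, their levels are uncertain, and they were chosen after their values were seen.

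Stress-response genes were nearly all detected. Of 30 immediate early genes 27 were detected, at 6575 and 6828 CPM in sum, with Jun at 1348 and 1238 CPM, Jund at 1051 and 1082 CPM, Fos at 687 and 748 CPM and the phosphatase Dusp1 at 432 and 524 CPM. Genes of this kind are known to respond within minutes to growth factors and stress. Heat shock genes were all detected, 15 of 15, at 7734 and 6775 CPM. The constitutive chaperone genes Hspa8 and Hsp90ab1 were at 1512 and 1880 and at 1429 and 1740 CPM. The inducible pair Hspa1a and Hspa1b ran the other way, at 1175 and 155 CPM and at 1390 and 246 CPM, while 12 of the 15 genes were higher in replicate 2 (60.3% of all members were). Hspa1a and Hspa1b differ at 11 aligned coding positions and share an identical run of 638 bases, so each level is uncertain but their sum was lower in replicate 2 by any split.

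Cell cycle genes were detected, with few counts for those of mitosis. Of 36 proliferation genes 34 were detected, at 795 and 831 CPM in sum, led by the cyclins Ccnd1 at 271 and 310 CPM and Ccnd3 at 109 and 115 CPM, with the inhibitor Cdkn1b at 74.1 and 70.0 CPM. The mitotic genes Mki67 and Top2a were at 4.74 and 2.84 CPM and at 5.46 and 3.68 CPM, named after their values were seen. Matrix genes gave 31 of 36, and the first of them were basement membrane collagens, Col4a1 at 367 and 303 CPM and Col4a2 at 354 and 309 CPM, with Col6a1 at 304 and 281 CPM and the laminin Lama5 at 225 and 258 CPM. Glycolysis gave 20 of 22 genes with a row, with Gapdh at 547 and 521 CPM and Ldha at 468 and 466 CPM. Families of sensory receptors served as a background of silent genes. Of 1191 olfactory receptor symbols 0 were detected and 1156 had no count, and of 326 vomeronasal receptor symbols 1 was detected.

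The genes furthest apart between the replicates had up to 4.19 between them on the log2 scale. Clca1, a secreted protein of mucous cells, had 1107 counts in replicate 1 and 71 in replicate 2, or 61.0 and 3.73 CPM, a log2 ratio of -4.03. Hspa1a and Hspa1b had log2 ratios of -2.92 and -2.50. Xlr3a, an X-linked gene of a multicopy family, was at 6.01 and 0.999 CPM, and Thbs2, which encodes thrombospondin 2, at 5.68 and 1.58 CPM. In the other direction Fbp2, the fructose bisphosphatase of muscle, was at 1.38 and 25.1 CPM, a log2 ratio of 4.19. The recombination gene Rad51b was at 1.43 and 12.7 CPM and the keratin Krt15, which basal cells make, at 0.937 and 7.31 CPM. Gm10282 was at 2.53 and 7.78 CPM and Fam126a at 12.7 and 34.3 CPM. Of the 138 members over 2-fold apart 96 had a mean under 50 counts, so most of these differences rest on little depth, while those of Clca1 and the Hspa1 pair rest on 1107 counts or more in replicate 1.

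**Figure D5:**
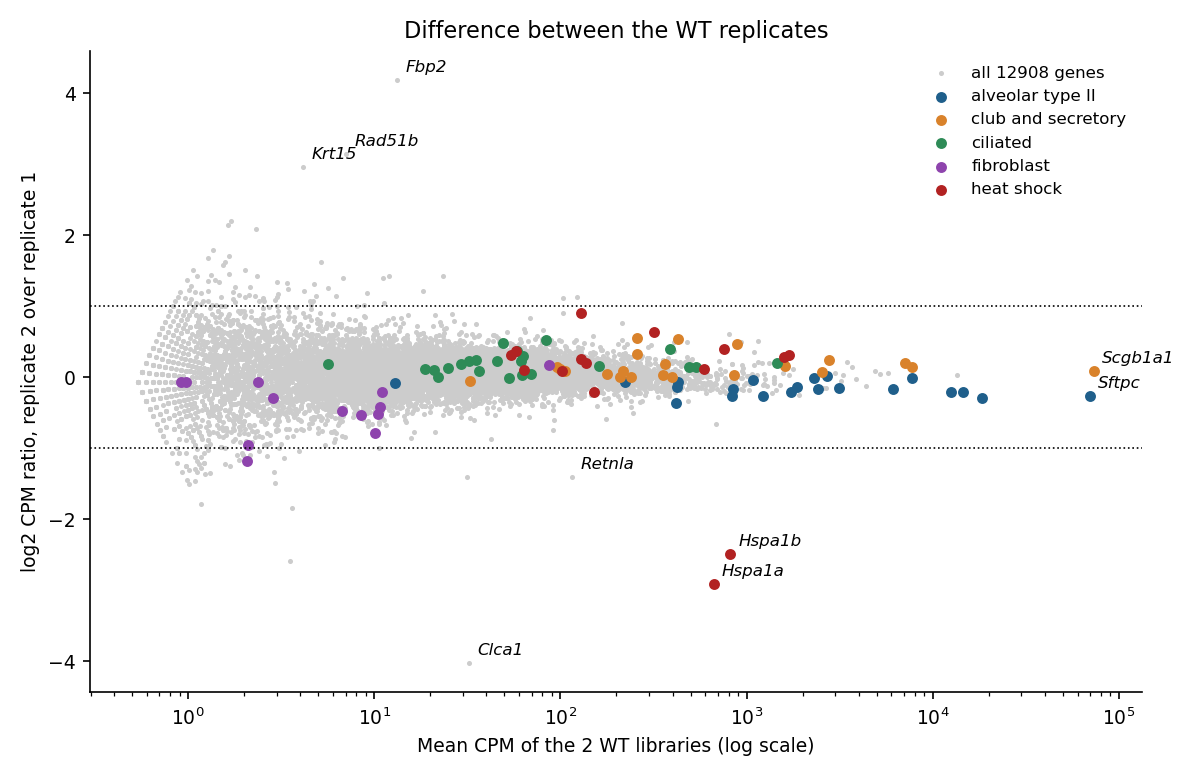
The log2 CPM ratio of WT replicate 2 over replicate 1 against mean CPM (log scale) for all 12908 members (grey), with 5 lists in colour and dotted lines at 2-fold. Type II genes lie just under 0 (median -0.16), ciliated genes just above it (median 0.18) and fibroblast genes under it (median -0.42), and Clca1, Hspa1a and Hspa1b lie far below the lower line.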

How the data were processed

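RNA was measured in 2 WT and 2 mTOR transgenic samples, and only the WT samples were used. The deposited values are raw read counts per gene symbol. HISAT2, edgeR and build mm10 are named in the submitters' processing notes. No source used here gives versions, settings, the counting program, its treatment of strand or its annotation, so overlapping and antisense genes cannot be told apart. No column was left unmapped.

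Computed here were CPM on column totals, and levels per kilobase of merged exons from GENCODE M21 on GRCm38 (mm10), matched by symbol, for 12750 members (98.8%). Scaling alternatives used edgeR 4.0.16 and DESeq2 1.42.0 in R 4.3.3. Other values came from Python 3.11.15 with pandas 2.3.3 and scipy 1.17.1. The code was tested on simulated counts. The common biological coefficient of variation of the pair was 0.087.

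The members and the 51 gene lists (26 of cell types, 25 of processes) were chosen with earlier results of these data known. Of 980 listed symbols 952 had a row. The others, among them Xist and Malat1, were not analysed here. Genes named are the markers Sftpc, Sftpb, Lamp3, Abca3 and Scgb1a1, the 30 members highest by CPM, the 10 highest per kilobase, the first 3 to 6 of a list with its undetected defining genes, and the 5 furthest apart in each direction at a mean of 50 or more counts. Some genes that this rule names are not reported here. Other names were chosen after their values were seen.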

Additional observations from a re-analysis of the deposited data

How the results depend on the processing

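The number of genes detected ran from 11171 to 15278 over minima of 1 to 50 counts in both libraries, and from 13126 to 13248 with either replicate left out. The share of the first 10 genes, 23.8% on average, was 53.0% per kilobase, and the 359 genes that held 50% of counts became 7. Without either replicate these were 22.98% to 24.6% and 329 to 389. The ratio of Scgb1a1 to Sftpc, 2.31 per kilobase on average, was 1.77 with transcript lengths and 1.06 by counts alone, and 2.03 to 2.58 with either replicate left out. The 138 genes over 2-fold apart became 23 at a minimum of 50 counts and 2564 with no filter, where genes with very few counts enter. TMM and median-of-ratios scaling both gave 135. Of 12 class shares, 11 moved by more than the spread between replicates per kilobase, and 11 with Sftpc and Scgb1a1 left out of the total. No paired analysis was possible because a single group was described and no test was made. With 2 libraries, depth limits genes under about 1 CPM, and nothing here separates mice from technical spread.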

Other observations

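Several of the most abundant genes belong to no list above. Of the first 30 members by CPM 11, of the first 100 members 44 and of the first 200 members 114 stood in no list, and many of them are mitochondrial or ribosomal genes. Others, named after their values were seen, have roles in the epithelium. The ubiquitin gene Ubb was at 1502 and 1770 CPM. The receptor phosphatase Ptprf was at 1528 and 1594 CPM, the amyloid precursor App at 1571 and 1462 CPM, and the aldehyde dehydrogenase Aldh2 at 1419 and 1380 CPM. Epas1, the hypoxia-inducible factor HIF-2 alpha, was at 1072 and 1242 CPM, the phospholipid flippase Atp11a at 1237 and 1416 CPM, the selenium-binding protein Selenbp1 at 1221 and 1262 CPM, and the carboxylesterase Ces1d at 1100 and 1082 CPM. Lgi3, a secreted leucine-rich repeat protein, was at 1023 and 900 CPM. Each of these differed by under 2-fold between the replicates.

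The labels give no sex. Of 8 sex-linked genes with a row, the Y-linked genes Ddx3y, Eif2s3y, Kdm5d and Uty were detected in both libraries, at 37.6 and 37.5, 31.5 and 37.1, 19.2 and 20.9, and 14.6 and 14.1 CPM, and the other 4 had no count. Of 24 nuclear noncoding RNAs listed, Snhg11 alone had a row, at 90.4 and 122 CPM. Counts were spread unevenly over the chromosomes. Chromosome 14, with Sftpc and Sftpa1, held 11.3% and 9.83% of counts over 421 members, and chromosome 19, with Scgb1a1 and Scd1, 11.01% and 11.3% over 443 members.

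Retnla, a secreted resistin-like protein, was at 168 and 63.1 CPM in replicates 1 and 2, Msln, a mesothelial surface protein, at 5.57 and 12.7 CPM, and the lactoferrin gene Ltf at 76.8 and 168 CPM. All were chosen after their values were seen.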
